A study of Mus musculus with 4 samples.

Results

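The collagen genes were taken as every symbol made of "Col", a number, "a" and a number, which gave 44 of the 24428 genes counted. They fall into 9 fibrillar genes (types I, II, III, V and XI), 6 basement membrane genes (type IV), 6 beaded filament genes (type VI) and 23 others. The RNA came from mouse embryonic stem cells of 129SvEv background, grown in serum-containing medium with LIF. The cells carry Smarca4 alleles flanked by loxP sites (Smarca4flfl) and CreER, a Cre recombinase that 4-hydroxytamoxifen switches on. Smarca4 encodes BRG1, an ATPase of the mammalian SWI/SNF chromatin remodelling complexes. The tamoxifen group (2 libraries) received 0.8 uM 4-hydroxytamoxifen and the ethanol group (2 libraries) received the solvent, each for 48 h, with harvest 72 h after the start. The comparison addresses what changes in mRNA after acute loss of Smarca4.

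All 4 libraries bear the same genotype label, acute deletion of Smarca4, the ethanol libraries included. The groups were therefore taken from the treatment label. The alleles and CreER are shared by both groups. The promoter driving CreER is not given in the sources used here. No cells without loxP sites were analysed here, so loss of Smarca4, the drug and active Cre cannot be told apart. The labels do not say whether the 2 libraries of a group came from separate cultures, so the p-values reflect no more than the spread of these libraries, which may be technical. In bulk RNA, a change in the share of cells that express a gene and a change in RNA per cell cannot be told apart.

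Smarca4 itself had 68.5 and 68.7 CPM (read counts scaled to library size with TMM factors) in the tamoxifen libraries, against 328 and 409 CPM in the ethanol libraries. It fell by 2.43 ± 0.17 on the log2 scale (SE; adjusted p = 1.1e-05), and the groups did not overlap. Its count covers the whole gene, and so also exons that Cre does not remove. Reads in genes numbered 13458463 and 17191445 in the tamoxifen libraries, against 16130823 and 27086142 in the ethanol libraries. Reads that the counting assigned to no gene feature made 35.0% to 37.6% in the tamoxifen libraries and 40.8% to 51.7% in the ethanol libraries. The annotation and strand setting are not given, so such reads may still lie within genes. The ethanol libraries lay farther apart than the tamoxifen libraries (chi-square per degree of freedom 10.5 between the tamoxifen libraries and 37 between the ethanol libraries). The 10 embryonic stem cell markers were all measured, with a summed level of 5400 to 5700 CPM in the tamoxifen libraries and 5600 to 5690 CPM in the ethanol libraries.

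Collagens are secreted proteins in which 3 chains wind into a triple helix, and the helical part of each chain repeats a glycine followed by 2 other residues. Fibrillar collagens make the tensile fibres of connective tissue, type IV makes the sheet of basement membranes, and type VI makes beaded microfibrils between them. Cells of the early embryo secrete type IV collagen into the basement membranes that underlie their epithelia, while the fibrillar types are best known from mesenchymal cells. The repeat is visible in the coding sequence. Glycine codons begin with GG, so long repeats raise the GC content of the mRNA. The first 60 bases of the longest unbroken repeat are printed for 4 genes on which the results turn, with the glycine codons in capitals (GENCODE M21, GRCm38, coding strand).
Col1a1: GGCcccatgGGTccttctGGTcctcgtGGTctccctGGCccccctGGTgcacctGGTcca
Col4a1: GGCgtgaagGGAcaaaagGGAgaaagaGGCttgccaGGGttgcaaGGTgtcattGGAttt
Col6a1: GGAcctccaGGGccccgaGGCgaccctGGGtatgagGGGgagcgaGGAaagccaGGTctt
Col6a5: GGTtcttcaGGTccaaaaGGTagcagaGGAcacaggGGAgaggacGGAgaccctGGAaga
In Col1a1, on chromosome 11, this repeat runs for 338 triplets without a break, and 26.8% of all codons encode glycine. The longest run is 40 triplets in Col4a1 (chromosome 8), whose helix is interrupted many times, with 28.6% glycine codons. Col6a1 (chromosome 10) has a longest run of 87 triplets, and Col6a5 (chromosome 9) one of 37 within a much longer protein of which 9.81% of the codons encode glycine.

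Of the 44 collagen genes, 33 had enough reads to be tested. In edgeR's quasi-likelihood test, 20 were higher with tamoxifen (60.6%), 1 was lower (3.03%) and 12 did not pass the threshold of an adjusted p under 0.05. Over all 14479 genes tested, 21.5% were higher and 22.9% were lower. The median log2 fold change of the 33 collagen genes was 0.74, and that of all tested genes was -0.01. Col11a2 and Col26a1 passed the read filter only through the tamoxifen libraries and so had to differ to be tested. Their calls, counted among the 20, are therefore no support for a rise. The other 31 had at least 1 ethanol library past the filter. The 11 genes that were not tested had at most 19 reads in any library, and Col9a1, a cartilage collagen, had 0 reads in all 4.

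The fold changes of all genes followed GC content: Spearman's rho between log2 fold change and transcript GC content was 0.643 across the tested genes, which are not independent replicates. The median GC content was 57.9% for the 33 collagen transcripts and 50.8% for all tested genes. A second fit therefore removed the trend with GC content from each library, after which rho was 0.0454. In that fit 13 collagen genes were higher (39.4%) and 1 was lower (3.03%), against 9.94% higher and 10% lower over all genes. The median log2 fold change became 0.53 for the collagen genes and 0.02 for all genes. All 14 genes called in the corrected fit were called in the same direction without the correction, and 7 calls were lost. Whether the trend arose in the cells or in the libraries was not tested, so both values are given for the collagen genes whose call differed.

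**Figure D1:**
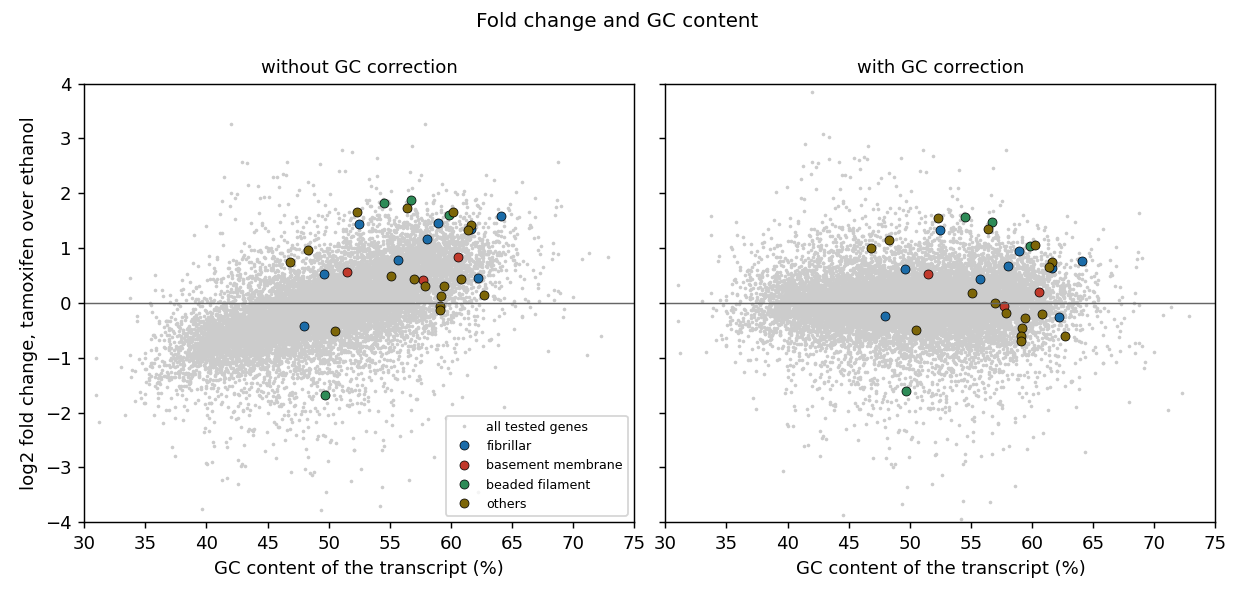
Log2 fold change, tamoxifen over ethanol (y axis), against GC content of the transcript in percent (x axis), without (left) and with (right) GC correction; grey points are all tested genes with a GC value but the 7 outside the axis limits, and coloured points the 33 tested collagen genes by class. Without the correction the cloud of all genes climbs with GC content (rho 0.643), and with it the cloud is flat (0.0454) while the type VI genes Col6a1, Col6a2 and Col6a3 stay between 1.03 and 1.57.

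Summed over the family, collagen mRNA had 2190 and 2140 CPM in the tamoxifen libraries, against 1390 and 1310 CPM in the ethanol libraries. The ratio of the means was 1.6, and the groups did not overlap. It was 2.93 for beaded filament, 2.11 for fibrillar, 1.47 for basement membrane and 1.56 for other collagens. Type IV was the most abundant class in every library. Set per length of transcript, it made 59.6% and 58.4% of collagen RPKM (CPM per kilobase of transcript) in the tamoxifen libraries, against 64.4% and 63.9% in the ethanol libraries. Fibrillar genes made 18.9% and 18.8% in the tamoxifen libraries, against 15.8% and 12.7% in the ethanol libraries. Beaded filament genes made the smallest share, 3.8% and 4.26% in the tamoxifen libraries against 2.32% and 1.88% in the ethanol libraries. The shares of these 3 classes did not overlap between groups, and that of the others did. The sums are described without a test. An exact two-sided permutation test of 2 libraries against 2 can give no p below 0.333. All CPM and RPKM values, and the sums, ratios and shares made from them, are without GC correction. Col4a1, Col4a2 and Col18a1 held 39.5%, 20.6% and 9.79% of the summed collagen CPM in tamoxifen library 1. In ethanol library 1 they held 47.8%, 17.3% and 10.2%. With GC correction none of them was called (log2 fold change -0.05, 0.20 and -0.21).

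**Figure D2:**
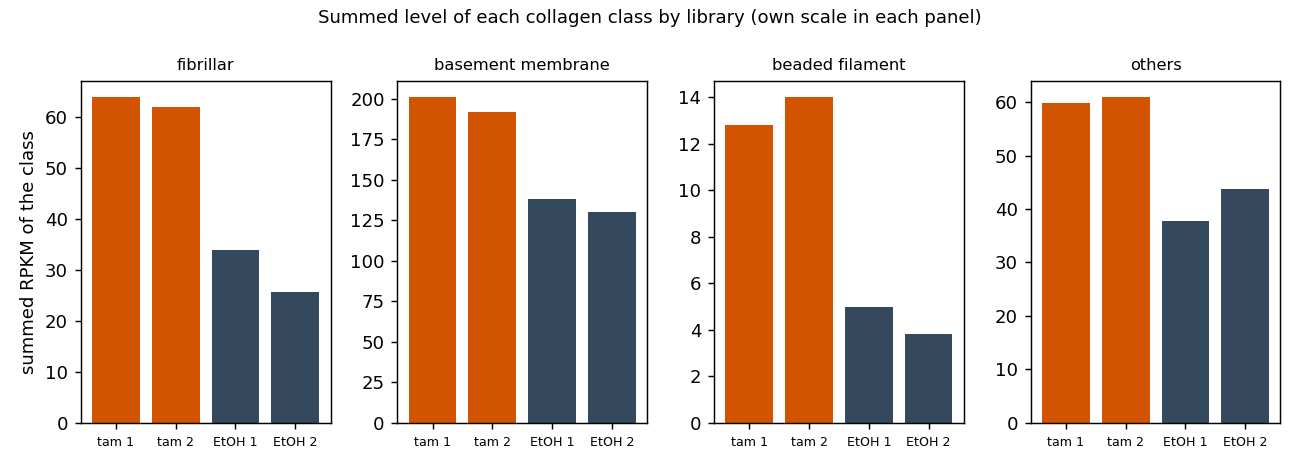
Summed RPKM of each collagen class (y axis, starting at 0, own scale in each panel), 1 bar per library, tamoxifen in orange and ethanol in dark blue. Every class is higher in both tamoxifen libraries than in both ethanol libraries, for example 12.8 and 14 against 4.99 and 3.81 for the beaded filament class. The sums are without GC correction.

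The clearest changes were in type VI collagen. Without GC correction its 3 main chains rose about 3-fold to 4-fold together, while Col6a5, a further chain of the same type, fell 3.20-fold. With the correction, the log2 fold changes of the main chains lay between 1.03 and 1.57, and that of Col6a5 was -1.60. Col6a1, which pairs with Col6a2 and Col6a3 in the basic type VI molecule, had 21.2 and 22.6 CPM in the tamoxifen libraries, against 7.23 and 4.92 CPM in the ethanol libraries. The log2 fold change was 1.88 ± 0.20 (SE; adjusted p = 9.1e-05), and 1.47 with GC correction (adjusted p = 0.000182). The tamoxifen libraries lay close together, well above both ethanol libraries.

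Col6a2, the neighbour of Col6a1 on chromosome 10, had 14.2 and 15.4 CPM in the tamoxifen libraries, against 5.93 and 3.96 CPM in the ethanol libraries. This was a log2 fold change of 1.61 ± 0.21 (adjusted p = 0.00022), and 1.03 with GC correction (adjusted p = 0.00277). Both tamoxifen values were more than 2-fold above the higher ethanol value. Col6a3, the longest chain of the basic molecule, had 39.4 and 43.7 CPM in the tamoxifen libraries, against 13 and 10.7 CPM in the ethanol libraries. On the log2 scale the difference was 1.82 ± 0.17 (adjusted p = 4.6e-05), and 1.57 with GC correction (adjusted p = 3.6e-05). For each of these 3 genes the groups were far apart, and none lost its call when any 1 library was left out, with or without GC correction.

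Col6a5, one of the chains thought to take the place of Col6a3 in some molecules, had 1.06 and 1.68 CPM in the tamoxifen libraries, against 3.78 and 5.07 CPM in the ethanol libraries. These levels rest on 15 and 30 reads in the tamoxifen libraries, against 58 and 132 reads in the ethanol libraries. It was the only collagen gene called lower, by 1.68 ± 0.30 on the log2 scale (adjusted p = 0.00108), and by 1.60 with GC correction (adjusted p = 0.00248). The call held without each library in turn, with a log2 fold change between -2.07 and -1.41. In RPKM, the ratio of Col6a5 to Col6a3 was 0.0293 and 0.0418 in the tamoxifen libraries, against 0.317 and 0.517 in the ethanol libraries. The other 2 alternative chains lie on either side of Col6a5 on chromosome 9 and had too few reads for a test. Col6a4 had 4 and 7 reads in the tamoxifen libraries and 2 and 1 in the ethanol libraries, and Col6a6 had 5 and 6 reads in the tamoxifen libraries and 2 and 1 in the ethanol libraries.

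Of the 9 fibrillar genes, all of them tested, 7 were higher with tamoxifen (77.8%, against 21.5% of all genes) and none was lower (against 22.9%). With GC correction 5 were higher (55.6%, against 9.94%) and none was lower (against 10%). The class median was 1.16 on the log2 scale without the correction and 0.64 with it. Both chains of type I collagen, the main protein of connective tissue fibres, rose. Col1a1 had 182 CPM in each of the tamoxifen libraries, against 80.7 and 52.0 CPM in the ethanol libraries. The fit gave a log2 fold change of 1.46 ± 0.20 (adjusted p = 0.000308), and 0.94 ± 0.17 with GC correction (adjusted p = 0.00184). Its ethanol libraries differed more from each other than its tamoxifen libraries, and leaving out 1 library moved the log2 fold change between 1.18 and 1.81 with the call kept.

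Col1a2, the partner chain, had 88.6 and 79.6 CPM in the tamoxifen libraries, against 55.2 and 43.0 CPM in the ethanol libraries. Its log2 fold change was 0.78 ± 0.16 (adjusted p = 0.00245), and 0.44 with GC correction (adjusted p = 0.0491). The corrected call sat at the threshold and was lost without either tamoxifen library and without ethanol library 2. Col3a1, whose homotrimer mixes into type I fibres, had 7.22 and 8.97 CPM in the tamoxifen libraries, against 3.52 and 2.57 CPM in the ethanol libraries. The log2 fold change was 1.44 ± 0.23 (adjusted p = 0.000657), and 1.33 with GC correction (adjusted p = 0.0015). The groups did not overlap, and the call for Col3a1 held without each library in both fits.

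Type V collagen sits inside type I fibres and limits their width. Col5a1 had 62.9 and 58.5 CPM in the tamoxifen libraries, against 31.0 and 23.4 CPM in the ethanol libraries. This was a log2 fold change of 1.16 ± 0.17 (adjusted p = 0.000331), and 0.68 with GC correction (adjusted p = 0.0067). The lower tamoxifen value was nearly 2-fold the higher ethanol value, and the corrected call was lost without either tamoxifen library. Col5a2, the next gene after Col3a1 on chromosome 1, had 29.6 and 31.3 CPM in the tamoxifen libraries, against 21.6 and 20.5 CPM in the ethanol libraries. On the log2 scale the difference was 0.53 ± 0.15 (adjusted p = 0.0135), and 0.62 with GC correction (adjusted p = 0.0105). In both fits its call was lost without either tamoxifen library.

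Col5a3, a less common type V chain, had 5.87 and 4.88 CPM in the tamoxifen libraries, against 2.02 and 2.19 CPM in the ethanol libraries. The fit gave a log2 fold change of 1.34 ± 0.24 (adjusted p = 0.00116), but 0.64 with GC correction, which did not pass (adjusted p = 0.0824). The groups did not overlap. Col11a2, a cartilage chain, had 16 and 23 reads in the tamoxifen libraries, against 3 and 14 reads in the ethanol libraries. Its log2 fold change was 1.58 ± 0.47 (adjusted p = 0.0167), which did not pass with GC correction (0.77, adjusted p = 0.287), without tamoxifen library 2 or without ethanol library 1. The ethanol values of Col11a2, 0.195 and 0.538 CPM, are too close to single reads to place its level firmly. It passed the read filter only through the tamoxifen libraries, so its test gives no support for a rise.

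The 2 fibrillar genes that did not pass are also cartilage chains. Col2a1 had 8.28 and 7.12 CPM in the tamoxifen libraries, against 6.06 and 5.18 CPM in the ethanol libraries (log2 fold change 0.46 ± 0.20, adjusted p = 0.0814; -0.25 with GC correction). Col11a1 had 4.95 and 5.60 CPM in the tamoxifen libraries, against 6.19 and 7.87 CPM in the ethanol libraries (log2 fold change -0.42 ± 0.21, adjusted p = 0.12). Neither gene's groups overlapped. Without ethanol library 1, Col2a1 was called higher and Col11a1 lower.

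**Figure D3:**
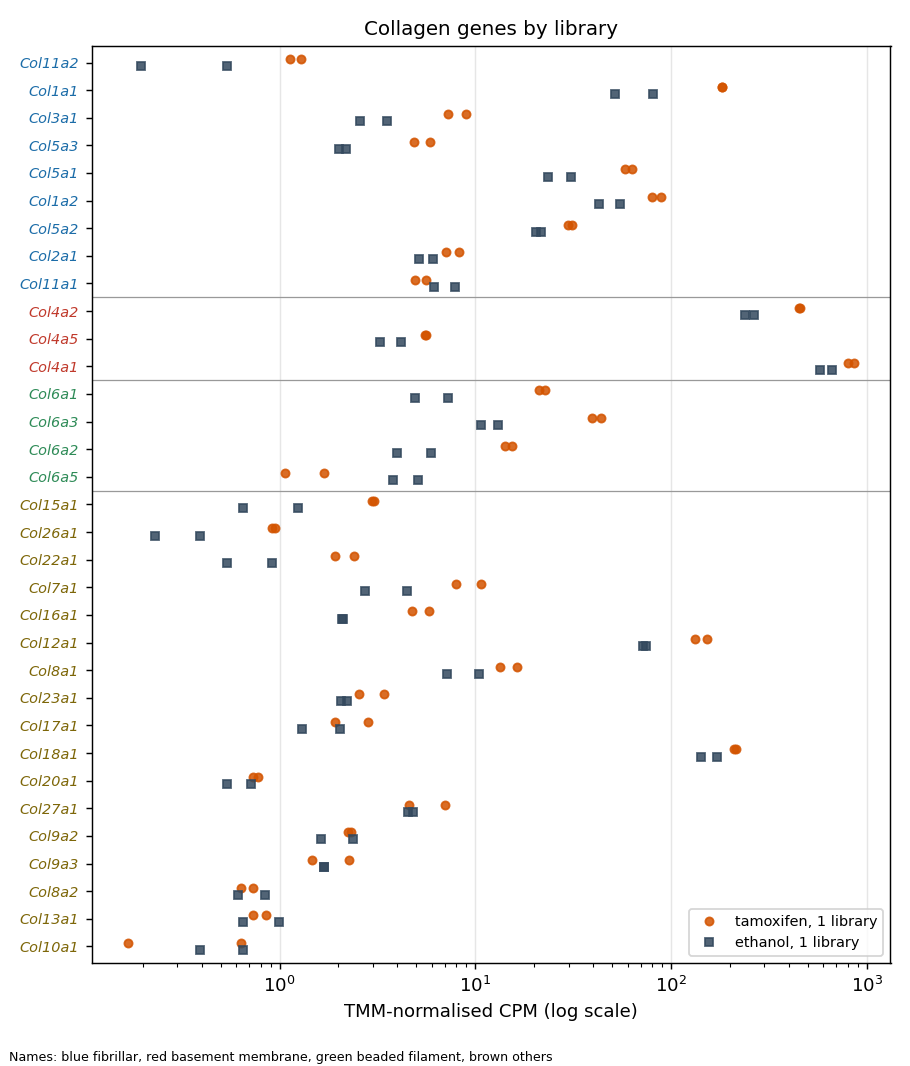
Level of the 33 tested collagen genes in each library (x axis, TMM-normalised CPM on a log scale; 1 row per gene, grouped by class), with orange circles for tamoxifen and dark squares for ethanol. The type VI chains and Col1a1 show wide gaps between groups, with 182 CPM for Col1a1 in the tamoxifen libraries against 80.7 and 52.0 CPM in the ethanol libraries, while Col4a1 shows a narrow one at a much higher level.

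Type IV collagen was the most abundant collagen mRNA. Of its 6 genes, 3 were tested. Among these, 2 were higher (66.7%, against 21.5% of all genes) and none was lower (against 22.9%). With GC correction none passed in either direction (against 9.94% higher and 10% lower of all genes). Col4a1 had the highest level per length of any collagen, with a mean of 126 RPKM in the tamoxifen libraries and 94.1 RPKM in the ethanol libraries. It had 863 and 799 CPM in the tamoxifen libraries, against 665 and 579 CPM in the ethanol libraries. The log2 fold change was 0.42 ± 0.16 (adjusted p = 0.0458), and -0.05 with GC correction (adjusted p = 0.85). The groups were close, and the uncorrected call was lost without either tamoxifen library and without ethanol library 2.

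Col4a2, whose chain joins 2 of Col4a1 in the common type IV molecule, had 451 and 456 CPM in the tamoxifen libraries, against 240 and 267 CPM in the ethanol libraries. This was a log2 fold change of 0.84 ± 0.15 (adjusted p = 0.00117), and 0.20 with GC correction, which did not pass (adjusted p = 0.372). Its groups did not overlap, and the uncorrected call held without each library. Col4a5, a chain of the type IV networks of kidney and other specialised membranes, had 5.59 and 5.55 CPM in the tamoxifen libraries, against 3.26 and 4.15 CPM in the ethanol libraries. On the log2 scale the difference was 0.57 ± 0.22, just short of the threshold (adjusted p = 0.0535), and 0.53 with GC correction (adjusted p = 0.115). The remaining chains of those networks were hardly present. Col4a3 had 3 and 2 reads in the tamoxifen libraries and 2 and 3 in the ethanol libraries, Col4a4 had 1 and 1 in the tamoxifen libraries and 0 and 2 in the ethanol libraries, and Col4a6 had 5 and 4 in the tamoxifen libraries and 3 and 10 in the ethanol libraries.

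Col4a1 and Col4a2 stand head to head on chromosome 8, and their start sites lie 21 bases apart on opposite strands. The promoter window of Col4a2 is printed because the pair shares part of it. Whether the fold changes of the 2 mRNAs differ was not tested. The window covers chr8:11312555-11312854 on the plus strand (RefSeq, GRCm38.p6), and capitals mark the 78 bases also present in the Col4a1 window.
Col4a2: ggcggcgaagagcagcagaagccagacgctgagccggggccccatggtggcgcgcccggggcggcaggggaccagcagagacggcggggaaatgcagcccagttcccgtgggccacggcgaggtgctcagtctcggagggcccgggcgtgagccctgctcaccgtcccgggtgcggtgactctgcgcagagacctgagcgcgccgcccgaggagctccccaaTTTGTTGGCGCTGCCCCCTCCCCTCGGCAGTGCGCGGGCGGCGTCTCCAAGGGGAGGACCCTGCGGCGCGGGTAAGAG
The window has a GC content of 73.7% and holds 3 matches to the GC box letters GGGCGG and 1 to CCAAT, searched on both strands with overlaps allowed. Windows running from 250 bases before to 50 after a start were found for 35 of the 44 collagen genes, 38 windows in all. GGGCGG was in 23 of these (60.5%) and in 35.7% of all 32851 windows. CCAAT was in 13 (34.2%, against 37.4% of all windows) and TATAAA in 5 (13.2%, against 13.6%). The collagen windows had a median GC content of 59.8%, against 52.7% for all windows. These matches describe letters and not bound sites. The 2 transcripts overlap at their starts, and the strand setting of the counting is not given in the sources used here, so reads in that short overlap cannot be assigned.

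The balance of chains within a collagen type was compared per length. The Col4a1 to Col4a2 ratio of RPKM was 1.87 and 1.71 in the tamoxifen libraries, against 2.70 and 2.12 in the ethanol libraries. The Col1a1 to Col1a2 ratio was 1.85 and 2.06 in the tamoxifen libraries, against 1.32 and 1.09 in the ethanol libraries. Both ratios lay between 1.71 and 2.06 in the tamoxifen libraries and were farther apart in the ethanol libraries. The Col5a1 to Col5a2 ratio was 1.68 and 1.47 in the tamoxifen libraries, against 1.13 and 0.897 in the ethanol libraries. The Col6a1 to Col6a2 ratio was 1.44 and 1.41 in the tamoxifen libraries, against 1.17 and 1.20 in the ethanol libraries. None of these 4 ratios overlapped between groups, whereas Col6a3 to Col6a1 did, with 0.756 and 0.783 in the tamoxifen libraries and 0.727 and 0.881 in the ethanol libraries. In 3 of the 4 pairs the chain of higher GC content was relatively higher with tamoxifen: Col1a1 (58.9%) over Col1a2 (55.7%), Col4a2 (60.6%) over Col4a1 (57.7%) and Col5a1 (58.0%) over Col5a2 (49.6%). In the fourth, Col6a1 (56.7%) was relatively higher than Col6a2 (59.8%). The ratios are likewise described without a test and without GC correction. The share of other gene pairs whose ratios separate the groups is not given, so the separation cannot be read as particular to these chains. With GC correction the log2 fold changes were 0.94 and 0.44 for Col1a1 and Col1a2, and -0.05 and 0.20 for Col4a1 and Col4a2. They were 0.68 and 0.62 for Col5a1 and Col5a2, and 1.47 and 1.03 for Col6a1 and Col6a2.

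**Figure D4:**
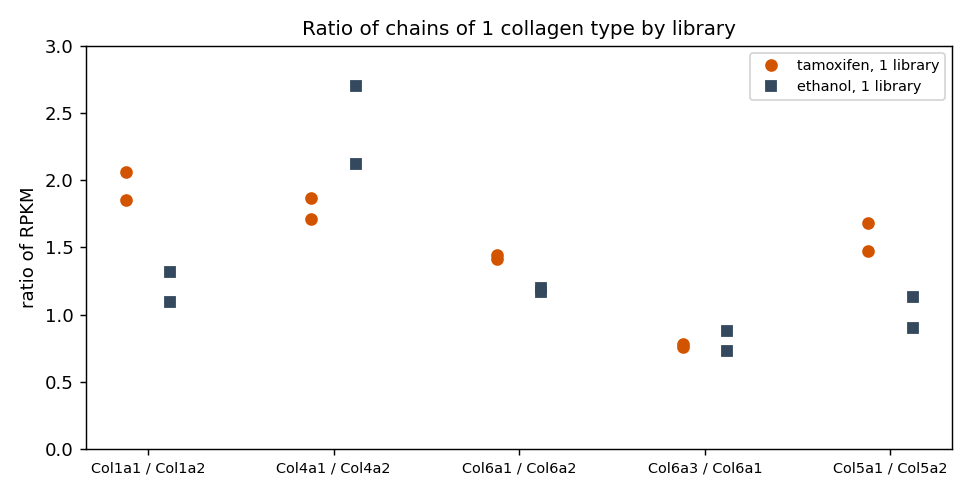
Ratio of RPKM between chains of 1 collagen type (y axis), 1 point per library, with orange circles for tamoxifen and dark squares for ethanol. The groups are apart for 4 of the 5 pairs and overlap for Col6a3 over Col6a1. Col4a1 over Col4a2 was 1.87 and 1.71 in the tamoxifen libraries against 2.70 and 2.12 in the ethanol libraries. The ratios are without a test and without GC correction.

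Among the 23 other collagens, 17 were tested. Of these 8 were higher (47.1%, against 21.5% of all genes) and none was lower (against 22.9%). With GC correction 5 were higher (29.4%, against 9.94%) and none was lower (against 10%). The class median of the log2 fold change was 0.44 without the correction and 0.00 with it. Col12a1, a chain that lies on the surface of fibrils, had 133 and 153 CPM in the tamoxifen libraries, against 72.1 and 74.7 CPM in the ethanol libraries. The fit gave a log2 fold change of 0.96 ± 0.15 (adjusted p = 0.000473), and 1.14 with GC correction (adjusted p = 0.000182). Its transcript has a GC content of 48.3%, below the median of all tested genes, and the call held without each library in both fits. Col8a1, a short chain of endothelial and corneal membranes, had 13.4 and 16.3 CPM in the tamoxifen libraries, against 7.17 and 10.4 CPM in the ethanol libraries. Its log2 fold change was 0.74 ± 0.20 (adjusted p = 0.0117), and 1.01 with GC correction (adjusted p = 0.0033). The groups of Col8a1 lay close together, and its call was lost in both fits without tamoxifen library 2.

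Types XV and XVIII are basement membrane zone collagens with interrupted helices. Col15a1 had 2.97 and 3.03 CPM in the tamoxifen libraries, against 1.24 and 0.653 CPM in the ethanol libraries. The log2 fold change was 1.74 ± 0.34 (adjusted p = 0.00182), and 1.35 with GC correction (adjusted p = 0.0117). The tamoxifen values were more than 2-fold above both ethanol values, and the corrected call was lost without tamoxifen library 2 and without ethanol library 2. Col18a1, the source of endostatin and after Col4a1 and Col4a2 the most abundant collagen per length, had 214 and 209 CPM in the tamoxifen libraries, against 142 and 171 CPM in the ethanol libraries. This was a log2 fold change of 0.44 ± 0.15 (adjusted p = 0.0357), but -0.21 with GC correction (adjusted p = 0.38). The uncorrected call for Col18a1 was lost without either tamoxifen library and without ethanol library 1; with GC correction and without ethanol library 1 it was called lower, as was Col9a2.

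Col7a1, the anchoring fibril collagen of the skin, had 8 and 10.7 CPM in the tamoxifen libraries, against 4.5 and 2.73 CPM in the ethanol libraries. On the log2 scale the difference was 1.42 ± 0.26 (adjusted p = 0.00132), and 0.74 with GC correction (adjusted p = 0.0389), a call lost without tamoxifen library 2 and without ethanol library 2. The groups did not overlap. Col22a1, known from tissue junctions such as that of muscle and tendon, had 1.91 and 2.41 CPM in the tamoxifen libraries, against 0.912 and 0.538 CPM in the ethanol libraries. The fit gave a log2 fold change of 1.65 ± 0.37 (adjusted p = 0.00391), and 1.55 with GC correction (adjusted p = 0.00952, lost without tamoxifen library 2). Both tamoxifen values lay clear of the ethanol values.

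Col16a1, a fibril-associated collagen, had 4.74 and 5.83 CPM in the tamoxifen libraries, against 2.08 and 2.11 CPM in the ethanol libraries. Its log2 fold change was 1.33 ± 0.24 (adjusted p = 0.00119), and 0.65 with GC correction, which did not pass (adjusted p = 0.0745). The groups were more than 2-fold apart. Col26a1 had 13 and 17 reads in the tamoxifen libraries, against 6 and 6 in the ethanol libraries. The log2 fold change was 1.66 ± 0.49 (adjusted p = 0.0164), which did not pass with GC correction (1.05, adjusted p = 0.151), without either tamoxifen library or without ethanol library 2. Counts this low leave a wide interval around the fold. Col26a1 also passed the read filter only through the tamoxifen libraries, so its test gives no support for a rise.

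The 9 other tested collagens that did not pass were Col23a1, Col17a1, Col27a1, Col20a1, Col9a2, Col9a3, Col8a2, Col13a1 and Col10a1. Col23a1, a membrane-spanning collagen, came nearest, with 2.55 and 3.42 CPM in the tamoxifen libraries against 2.22 and 2.07 CPM in the ethanol libraries (log2 fold change 0.49, adjusted p = 0.157). Col17a1, the hemidesmosome collagen of epithelia, had 2.83 and 1.91 CPM in the tamoxifen libraries against 1.30 and 2.04 CPM in the ethanol libraries (0.44, adjusted p = 0.288), and its groups overlapped. Col27a1, a cartilage collagen, had 7 and 4.6 CPM in the tamoxifen libraries against 4.82 and 4.53 CPM in the ethanol libraries (0.30, adjusted p = 0.321), also with overlap. Col9a1, Col14a1, Col19a1, Col24a1, Col25a1 and Col28a1 were not tested.

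**Figure D5:**
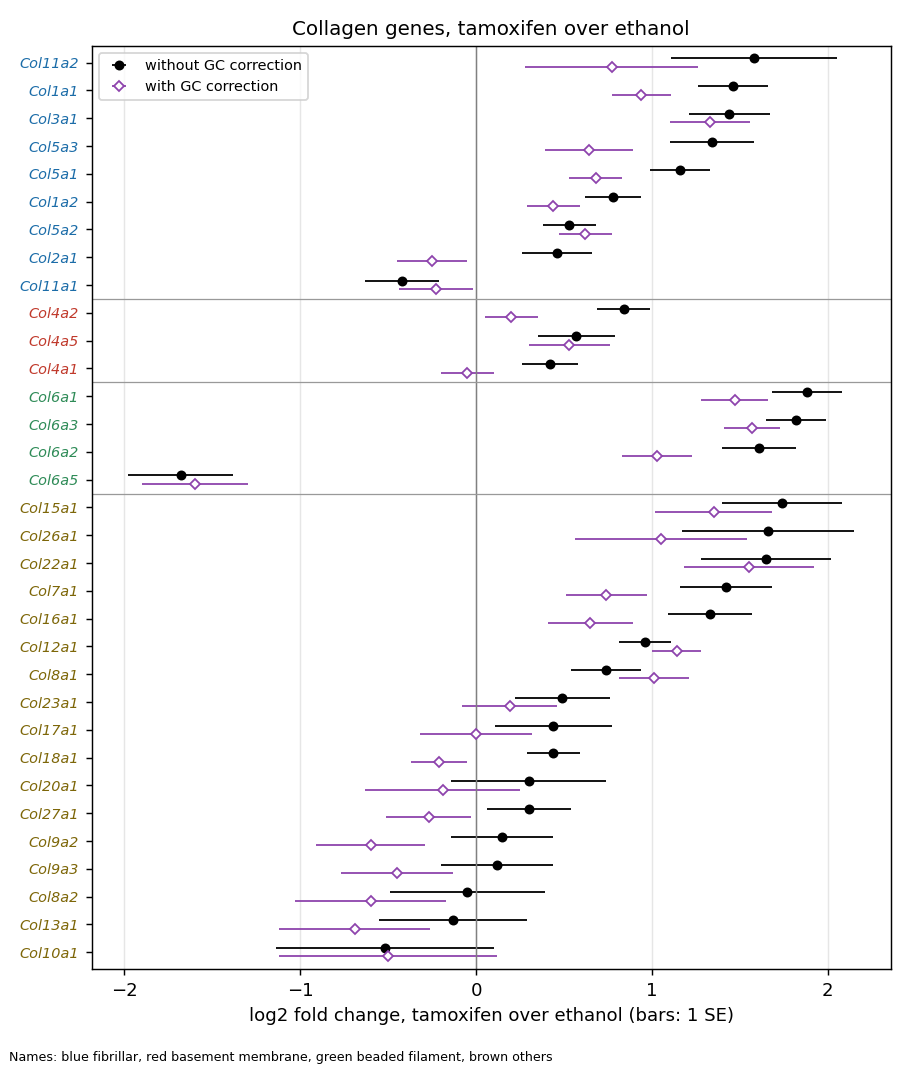
Log2 fold change, tamoxifen over ethanol (x axis), of the 33 tested collagen genes grouped by class, with bars of 1 SE; filled black points are without and open purple points with GC correction. Col6a1, Col6a2 and Col6a3 stay above 1 in both fits and Col6a5 stays at -1.68 and -1.60, while Col4a1 (0.42 and -0.05) and Col18a1 (0.44 and -0.21) cross zero.

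Of 30 listed genes that fold and secrete collagen, 28 were tested, and the share called higher was close to that of all genes. In all 6 were higher (21.4%, against 21.5% of all genes) and 2 were lower (7.14%, against 22.9%), with a median log2 fold change of 0.01. With GC correction 2 were higher (7.14%, against 9.94% of all genes) and none was lower (against 10%). Plod3, a lysyl hydroxylase, had 56.4 and 58.5 CPM in the tamoxifen libraries, against 31.4 and 29.6 CPM in the ethanol libraries. Its log2 fold change was 0.91 ± 0.15 (adjusted p = 0.000574). With GC correction its value was 0.44 (adjusted p = 0.0415), a call lost without either tamoxifen library and without ethanol library 1. P3h3, of the prolyl 3-hydroxylase family, had 9.20 and 9.08 CPM in the tamoxifen libraries, against 3.97 and 4.07 CPM in the ethanol libraries (1.18 ± 0.20, adjusted p = 0.00073; 0.53 with GC correction, adjusted p = 0.078). Plod1, another lysyl hydroxylase, had 62.1 and 59.1 CPM in the tamoxifen libraries, against 38.2 and 34.2 CPM in the ethanol libraries (0.75, adjusted p = 0.00188; 0.37 with GC correction, adjusted p = 0.0816). Neither P3h3 nor Plod1 passed with GC correction. The lower genes were Plod2, also a lysyl hydroxylase, and Trappc2, a component of the vesicle transport machinery, with 3.33 and 4.54 CPM in the tamoxifen libraries against 7.36 and 7.45 CPM in the ethanol libraries for Trappc2 (-0.90 ± 0.22, adjusted p = 0.00604). The call for Trappc2 was lost with GC correction (-0.29, adjusted p = 0.363) and without tamoxifen library 1. Plod2, named after its values were seen, had a log2 fold change of -0.58 (adjusted p = 0.0133) and lost its call with GC correction (-0.06, adjusted p = 0.826) and without tamoxifen library 2. Mia3, a receptor for bulky secretory cargo, is listed at 0 reads in all 4 libraries.

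A list of 22 genes for procollagen processing and cross-linking also held Furin and the matrix proteins Ecm1, Fmod, Lum, Dcn, Bgn and Sparc. Of these 22 genes, 20 were tested. In all 12 were higher (60%, against 21.5% of all genes) and 1 was lower (5%, against 22.9%), with a median log2 fold change of 0.67. With GC correction 9 were higher (45%, against 9.94%) and 2 lower (10%, the same share as of all genes), with a median of 0.46. Loxl3, a lysyl oxidase-like enzyme that starts cross-links between chains, had 27 and 27.5 CPM in the tamoxifen libraries, against 10 and 9.37 CPM in the ethanol libraries. This was a log2 fold change of 1.49 ± 0.16 (adjusted p = 9.1e-05), and 1.31 with GC correction. The 4 values of Loxl3 formed 2 tight pairs nearly 3-fold apart. Bmp1, the protease that removes the C-terminal propeptide of fibrillar collagens, had 33.2 and 31.7 CPM in the tamoxifen libraries, against 14.6 and 12.1 CPM in the ethanol libraries (1.29, adjusted p = 0.00018; 0.80 with GC correction). Tgm2, a transglutaminase, had 34.0 and 33.0 CPM in the tamoxifen libraries, against 14.5 and 12.4 CPM in the ethanol libraries (1.32, adjusted p = 0.000151; 0.88 with GC correction). Ecm1, a secreted matrix glycoprotein, had 80.6 and 76.9 CPM in the tamoxifen libraries, against 32.4 and 20.6 CPM in the ethanol libraries (1.58 ± 0.20, adjusted p = 0.000229; 1.09 with GC correction). All 4 of these genes kept their call with GC correction and without each library. The lower gene, named after its values were seen, was Pcolce2, an enhancer of procollagen cleavage, with 5.59 and 5.88 CPM in the tamoxifen libraries against 14.1 and 14.7 CPM in the ethanol libraries (-1.32, adjusted p = 0.000249; -1.02 with GC correction). Its relative Pcolce, also named after its values were seen, was not called without GC correction (-0.36, adjusted p = 0.0566) and was called lower with it (-0.88, adjusted p = 0.00132).

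Of 25 receptors of collagen, degrading enzymes and inhibitors of such enzymes, 20 were tested. In all 7 were higher (35%, against 21.5% of all genes) and 1 was lower (5%, against 22.9%), with a median log2 fold change of 0.39. With GC correction 9 were higher (45%, against 9.94%) and 1 lower (5%, against 10%), with a median of 0.53. Ddr1, a receptor tyrosine kinase that binds collagen, had 57.9 and 57.7 CPM in the tamoxifen libraries, against 25 and 19.6 CPM in the ethanol libraries (1.38 ± 0.16, adjusted p = 0.000127; 0.80 with GC correction). Mrc2, an endocytic collagen receptor, had 16.3 and 20.7 CPM in the tamoxifen libraries, against 7.69 and 7.68 CPM in the ethanol libraries (1.27, adjusted p = 0.000336; 0.73 with GC correction, a call lost without tamoxifen library 2). The groups of both receptors did not overlap. Mmp15, a membrane-bound metalloproteinase, had 24.8 and 23.9 CPM in the tamoxifen libraries, against 11.7 CPM in each ethanol library (1.06, adjusted p = 0.000449; 0.48 with GC correction, a call lost without either tamoxifen library and without ethanol library 1). Timp2, an inhibitor of such proteinases, had 99.9 and 97.1 CPM in the tamoxifen libraries, against 55.3 and 47.8 CPM in the ethanol libraries (0.94, adjusted p = 0.000542; 0.74 with GC correction). The single lower gene, named after its values were seen, was Itga1, a collagen-binding integrin chain, with 1.77 and 3.19 CPM in the tamoxifen libraries against 7.36 and 7.91 CPM in the ethanol libraries (-1.60 ± 0.26, adjusted p = 0.000694; -1.07 with GC correction, a call lost without tamoxifen library 1). Gp6 and Mmp8, a platelet receptor and a neutrophil collagenase, had 0 reads in all libraries.

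Markers of cell types that make collagen were measured beside these genes. Of 24 fibroblast markers, 20 were tested, 11 were higher (55%, against 21.5% of all genes) and 1 was lower (5%, against 22.9%). With GC correction 13 were higher (65%, against 9.94%) and 1 lower (5%, against 10%). Their summed level was 3170 and 3360 CPM in the tamoxifen libraries, against 2580 and 2330 CPM in the ethanol libraries. The largest part was Fn1, with 1730 and 1830 CPM in the tamoxifen libraries against 1540 and 1360 CPM in the ethanol libraries. Fn1 was not called (log2 fold change 0.30, adjusted p = 0.134). Acta2, smooth muscle actin, had 353 and 363 CPM in the tamoxifen libraries, against 162 and 139 CPM in the ethanol libraries (1.25, adjusted p = 0.000157). Tagln, an actin-binding protein of contractile cells, and Cd248, a stromal surface protein, also rose (0.94 and 1.65; the corrected call of Tagln was lost without tamoxifen library 2), while Sfrp1, a secreted Wnt inhibitor, fell by 1.28 on the log2 scale. Lum, Fap and Meox2 had at most 6 reads in any library, and Tcf21 had 3 reads in 1 tamoxifen library and 0 in the others. Lox, Dcn, Lum, Fap and Mmp2 stand on this list and on a collagen list, so the counts share genes. The part of such cells in the collagen values was not tested.

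Primitive and parietal endoderm secrete much type IV collagen. Markers of primitive, parietal and visceral endoderm were measured as well, the last including Hnf4a, Afp, Ttr, Apoa1, Amn and Cubn. All 24 were tested, 7 were higher (29.2%, against 21.5% of all genes) and 2 were lower (8.33%, against 22.9%). With GC correction 4 were higher (16.7%, against 9.94%) and 2 lower (8.33%, against 10%). Their summed level overlapped between groups, with 5580 and 5380 CPM in the tamoxifen libraries and 5720 and 5030 CPM in the ethanol libraries. Foxa2, Thbd and Hnf4a rose by 1.39, 1.14 and 0.91 on the log2 scale and Krt19 fell by 0.95. The other lower gene was Afp, the fetal serum protein, named after its values were seen, with 5 and 17 reads in the tamoxifen libraries against 35 and 68 reads in the ethanol libraries (-1.85, adjusted p = 0.00296; -1.53 with GC correction). The corrected calls were lost without tamoxifen library 1 for Afp and without either tamoxifen library for Hnf4a. Of 15 chondrocyte and osteoblast markers, 7 were tested, 4 were higher (57.1%, against 21.5% of all genes) and 2 were lower (28.6%, against 22.9%). With GC correction 2 were higher (28.6%, against 9.94%) and 0 lower (against 10%). Their summed level was 469 and 462 CPM in the tamoxifen libraries, against 560 and 537 CPM in the ethanol libraries. Spp1 made most of this sum, with 289 and 315 CPM in the tamoxifen libraries against 431 and 410 CPM in the ethanol libraries. Alpl made most of the rest, with 152 and 122 CPM in the tamoxifen libraries against 104 and 103 CPM in the ethanol libraries. The sum therefore follows these genes and not the list as a whole. Sox9, the cartilage transcription factor, passed the read filter only through the tamoxifen libraries and had to differ to be tested; it had 23 and 32 reads in the tamoxifen libraries against 5 and 7 reads in the ethanol libraries. Sp7, a bone transcription factor, had a log2 fold change of 1.89 (adjusted p = 0.00869; 1.64 with GC correction, a call lost without tamoxifen library 1 and without ethanol library 2). The lower genes were Matn3 (-0.62, adjusted p = 0.0115; -0.23 with GC correction) and Spp1 (-0.48, adjusted p = 0.0218; -0.05 with GC correction), and neither passed with GC correction. Ibsp and Dmp1, late bone markers, had 0 reads. Of 10 endothelial markers, 8 were tested, 1 was higher and 1 was lower (12.5% each, against 21.5% and 22.9% of all genes; 0 and 1 with GC correction, against 9.94% and 10%), with a summed level of 63.0 and 64.2 CPM in the tamoxifen libraries, against 51.1 and 50.3 CPM in the ethanol libraries. Among the 10 embryonic stem cell markers, 1 was higher and 2 were lower (10% and 20%, against 21.5% and 22.9% of all genes), and with GC correction 3 were higher and 3 lower (30% each, against 9.94% and 10%). Fgf4 fell by 0.93, and Dppa5a rose by 0.53, a call lost without either tamoxifen library. The part of any of these cell types in the collagen values was not tested.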

How the data were processed

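Poly(A) RNA of 4 libraries was sequenced. The deposited files hold whole-number read counts per gene symbol, one file a library; per the submitters' processing notes, CASAVA 1.8.2, Bowtie 1.1.1, HTSeq, DESeq2 and the build mm9 were used, in roles that are not given. Neither the annotation nor the strandedness of the counting is stated there. Rows that name no gene were left out of library sizes.

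From these counts, edgeR 4.0.16 (R 4.3.3) fitted all genes that passed filterByExpr (minimum count 10), with TMM factors, a group term and the robust quasi-likelihood test. P-values were Benjamini-Hochberg adjusted over all 14479 genes, with a threshold of 0.05. The GC correction subtracted, as an offset per library, a loess (span 0.5, degree 1) of log2 CPM deviation on transcript GC content. GC content and length came from GENCODE M21 transcripts with the longest coding part, matched by symbol (23535 directly, 524 through a synonym, 369 unmatched); 99.4% of tested genes had a value. RPKM used that length. Alternatives used DESeq2 1.42.0, limma 3.58.1 (voom), other scalings, filters and corrections, a replicate block, and each library left out. The same fit was run on simulated counts with known changes. With no GC trend, 14.3% of calls fell on unchanged genes. With a GC trend added to the tamoxifen libraries, 97% did so without GC correction and 6.92% with it. Of genes changed 1.5-fold, 30.2% were recovered with no trend, and 12.7% with the added trend and GC correction. These shares were 84.1% and 69.6% for 2-fold changes, and 98.5% and 95.6% for 4-fold changes. A call lost with GC correction therefore does not show that a gene was unchanged by the added trend's removal or otherwise. The size of the added trend was set by hand, and whether the trend of these data is of that kind was not tested.

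Named genes were chosen by rule: every collagen called, all type IV and type VI genes, the 5 highest per length, up to 3 per class that did not pass, and up to 4 of smallest adjusted p per list. The members and lists were chosen with earlier results of these data known.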

Additional observations from a re-analysis of the deposited data

How the results depend on the processing

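Of 60 named genes (59 with the filter of at least 1 CPM), none changed sign under RLE, upper-quartile or total-count scaling, no filter, a filter of at least 1 CPM in 2 libraries, DESeq2 or limma voom. Most of these genes were named for a small adjusted p in the main fit of the same counts, so a stable sign was likely beforehand. The number of collagen genes higher was 18 with DESeq2, 20 with limma voom and 22 with total counts, a scaling that moved the median of all genes to 0.12. Col6a5 was lower in each. The share of all genes called in these fits is not given here, so the shifts cannot be read as particular to collagens. Without a filter, 1 type IV gene was higher, since Col4a1 did not pass.

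With GC correction, 13 collagen genes were higher, with 0 of type IV and 5 of the others; the folding genes gave 2 higher and 0 lower, the processing genes 2 lower, and all genes 1439 higher and 1448 lower. Col17a1 became 0.00, Col18a1 -0.21, Col27a1 -0.27, Col2a1 -0.25 and Col4a1 -0.05. With GC and length correction, 11 collagen genes were higher (4 fibrillar, 0 of type IV, 4 others), the folding genes gave 0 and 0, the processing genes 2 lower, and all genes 1356 higher and 1387 lower; Col17a1 became -0.09, Col18a1 -0.30, Col27a1 -0.38, Col2a1 -0.33, Col4a1 -0.15 and Spp1 0.04. The cause was not tested.

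Requiring at least 2-fold left 13 collagen genes higher (0 of type IV, 5 others), 1 folding gene higher and 0 lower, 7 processing genes and 4 receptor genes higher, and 859 higher and 970 lower of all genes. At an adjusted p under 0.01, 1 type IV gene, 5 others and 3 folding genes were higher, 1 folding gene was lower, and all genes gave 1765 higher and 2041 lower.

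Same-numbered libraries of the groups share only a number (their deviations correlated by 0.234). With the replicate number as a block, 22 collagen genes were higher and 1 lower, 6 folding genes and 2 processing genes lower. The share of all genes called with the block is not given here, with or without GC correction. Gains in calls with the block therefore cannot be read as particular to these lists. With GC correction and the block, 16 collagen genes were higher, 1 of type IV; 4 folding, 2 processing and 2 receptor genes were lower and 11 receptor genes higher; Col17a1 became -0.01, Col18a1 -0.20, Col27a1 -0.30, Col2a1 -0.26 and Col4a1 -0.05.

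Leaving out 1 library at a time left 14 to 19 collagen genes higher and 1 to 2 lower, the fewest without tamoxifen library 2; with GC correction 6 to 13 were higher and 1 to 3 lower. In the fits without and with GC correction, the classes ranged over 0 to 1 fibrillar genes lower without it and 2 to 5 fibrillar genes higher with it, 1 to 2 and 0 to 1 of type IV higher, 5 to 7 and 1 to 5 others higher, and 0 to 2 others lower with it. Folding genes gave 3 to 8 and 0 to 3 higher and 1 to 6 and 0 to 2 lower. Processing genes gave 7 to 12 higher and 1 to 2 lower without it, and receptor genes 4 to 9 higher and 0 to 2 lower with it. All genes gave 1800 to 3598 and 420 to 1765 higher, and 2055 to 3728 and 465 to 1864 lower. Col27a1 ranged from -0.02 to 0.59. With 2 libraries a group, fold changes near 1.3-fold such as that of Col4a1 turn on single libraries, and genes under about 1 CPM rest on few reads.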
